A study of Mus musculus with 4 samples.

Results

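Nxt2 and the NXF family of messenger RNA exporters were examined in mouse embryonic stem cells with and without silencing of Ogt, which encodes the transferase for O-linked N-acetylglucosamine on nuclear and cytosolic proteins. The members were the genes Nxt1, Nxt2, Nxf1, Nxf2, Nxf3 and Nxf7, found by their symbols in the deposited expression table, which names 20723 gene symbols. All 6 were present, each with 1 probe set, the group of array probes that gives a gene its value. Nxt2 was taken up because it stood among the genes with the smallest p-values in this very comparison, and the others are its family, so every difference given for the members is a description and has no test.

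The arrays measured total RNA of E14 cells, a stem cell line of the strain labelled Ola129, grown on gelatin with serum and leukemia inhibitory factor. In 2 samples the cells had received esiRNA against Ogt, and in 2 control samples esiRNA against GFP, each transiently and for 48 h. An esiRNA is a pool of short interfering RNAs cut from a longer double-stranded RNA. Both groups share the line, the medium and a transfection, and nothing in the labels says that samples came from separate cultures, so the spread between the arrays of a group may be technical. No untransfected cells and no second Ogt reagent were analysed here.

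Messenger RNA leaves the nucleus through the pore bound to an export receptor, of which Nxf1 is the general one in animal cells. Nxf1 works as a pair with the small protein Nxt1, whose fold resembles that of nuclear transport factor 2, the carrier of Ran. Nxt2 is a close relative of Nxt1 that can also bind NXF proteins, and Nxf2, Nxf3 and Nxf7 are relatives of Nxf1. In mouse, Nxf2 is known mainly from male germ cells. The TREX complex loads the receptor onto spliced transcripts, TREX-2 ties the cargo to the pore, and a helicase on the cytoplasmic side releases it.

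In the RefSeq gene table of assembly GRCm38.p6, Nxt2, Nxf2, Nxf3 and Nxf7 lie on the X chromosome, as does Ogt, while Nxt1 lies on chromosome 2 and Nxf1 on chromosome 19. RefSeq promoters were found for 5 of the 6 members, all but Nxf3. The sequences below are the 250 bases before a start site, in GRCm38.p6, for Nxt2, for its partner-type relative Nxt1 and for Nxf2. They are shown because they lie upstream of the member that differed most between the groups and of 2 of the 5 that differed less. The regions of Nxf1 and Nxf7 and of the other start of Nxt1 and of Nxf2 are not printed. Capitals mark matches to 3 motifs, searched on both strands, with no match overlapping another. The first is the CCAAT box, found by those letters. The E-box was found by the letters CACGTG. The GC box was found by the letters GGGCGG. The motifs were chosen by hand and after the expression values were known.
Nxt2, first start, chrX:142227687-142227936, plus strand: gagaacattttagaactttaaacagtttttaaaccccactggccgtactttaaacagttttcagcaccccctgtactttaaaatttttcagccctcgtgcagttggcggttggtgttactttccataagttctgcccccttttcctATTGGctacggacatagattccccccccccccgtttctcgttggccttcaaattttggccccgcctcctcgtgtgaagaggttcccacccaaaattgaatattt
Nxt2, second start, chrX:142227927-142228176, plus strand: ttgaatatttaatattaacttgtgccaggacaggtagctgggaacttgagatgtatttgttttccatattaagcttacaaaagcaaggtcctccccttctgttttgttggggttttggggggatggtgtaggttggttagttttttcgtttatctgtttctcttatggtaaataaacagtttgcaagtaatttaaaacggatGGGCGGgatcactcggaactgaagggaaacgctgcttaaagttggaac
Nxt1, first start, chr2:148672365-148672614, plus strand: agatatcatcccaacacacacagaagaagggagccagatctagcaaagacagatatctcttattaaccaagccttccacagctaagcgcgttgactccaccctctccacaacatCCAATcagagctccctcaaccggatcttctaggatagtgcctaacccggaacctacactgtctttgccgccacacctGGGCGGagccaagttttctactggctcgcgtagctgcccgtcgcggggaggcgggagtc
Nxf2, start farthest upstream, chrX:134964755-134965004, minus strand: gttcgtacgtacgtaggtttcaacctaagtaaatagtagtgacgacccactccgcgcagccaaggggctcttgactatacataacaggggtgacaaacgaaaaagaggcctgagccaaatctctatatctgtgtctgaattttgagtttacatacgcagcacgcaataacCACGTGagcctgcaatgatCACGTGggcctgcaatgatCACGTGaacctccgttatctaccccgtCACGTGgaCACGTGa

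The first Nxt2 region held 1 CCAAT box, on the minus strand, and 8 CpG dinucleotides, and the second held 1 GC box and 5 CpG. The Nxt1 region held 1 CCAAT box, 1 GC box and 12 CpG, and the region of its other start, which overlaps it, held the same 2 motifs and 16 CpG. The Nxf2 region held 5 E-boxes and 16 CpG. Among all 32851 regions of this length in the table, 33.8% held at least 1 CCAAT box, 6.02% at least 1 E-box and 32.7% at least 1 GC box. The median number of CpG was 6. The share of regions with 5 E-boxes was not counted. The other Nxf2 region held 0 of the 3 motifs and 12 CpG, and both Nxf7 regions held 0 of the 3 motifs and 2 CpG. Both Nxf1 regions held 3 GC boxes, with 30 and 33 CpG. A match describes these letters and is not a measured binding site. The arrays measured neither methylation nor binding at any of these promoters.

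The silenced gene itself was read first. Ogt stood at log2 values of 9.73 and 10.09 on the silenced arrays, against 11.51 and 11.38 on the control arrays. Both silenced arrays were below both controls, a difference of -1.54 (SE 0.17), or 2.91-fold lower. The array medians lay between 6.40 and 6.46 across both groups. All 8 stem cell markers, Pou5f1, Nanog, Sox2, Klf4, Zfp42, Esrrb, Dppa5a and Utf1, were above the array median, with values from 9.30 to 13.47. Their summed level, on the log2 scale, was 15.20 and 15.28 on the silenced arrays and 15.16 and 15.20 on the controls. Markers of fibroblasts, the usual feeder cells, were 5 in number and had values from 4.12 to 7.28 and summed to 8.72 and 8.72 on the silenced arrays and 8.84 and 8.94 on the controls. The 4 germ cell markers differed in both directions, with Ddx4 at -0.81 (SE 0.22), Prm1 and Tnp1 at -0.20 each (SE 0.12 and 0.14) and Stra8 at 0.31 (SE 0.17). They summed to 9.05 and 8.95 on the silenced arrays and 9.38 and 9.05 on the controls. The 3 trophoblast markers summed to 8.45 and 9.26 on the silenced arrays and 8.57 and 8.98 on the controls. By their means over the 4 arrays, 4 of the 5 fibroblast markers were above the array median too. So were 2 of the 4 germ cell markers and 2 of the 3 trophoblast markers. The highest means in these lists were 7.06, 7.82 and 7.79, against a lowest of 9.61 for the stem cell markers. No marker was listed at 0, since such arrays give a background value to silent genes. Over the whole table, limma with Benjamini-Hochberg adjustment at 0.05 called 0 of 34760 probe sets (0.00%), and 2565 (7.38%) stood at an unadjusted p under 0.05.

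Nxt2 showed by far the widest gap of the 6 genes. Its probe set had log2 values of 7.25 and 7.12 on the silenced arrays, against 8.95 and 8.66 on the control arrays. The silenced arrays were the lower ones without overlap, and the nearest arrays of the groups were 1.41 apart, against ranges of 0.13 within the silenced group and 0.29 within the control group. The group means were 7.19 ± 0.09 in silenced cells and 8.81 ± 0.21 in control cells (SD, n = 2 each). The difference was -1.62 (SE 0.16, 95% interval of the limma fit -2.04 to -1.20), or 3.08-fold lower. Taken array by array, the differences were -1.70 and -1.54 between arrays of the same replicate number, and -1.41 and -1.83 between arrays of unlike number. By the size of its difference Nxt2 ranked 6 among the 20723 gene symbols, and it ranked 6 among the lower ones too. The next in order on either side were 1700001L05Rik at -1.69 and 4933427D06Rik at -1.56. Within each array, the Nxt2 probe set was brighter than 60.2% and 58.8% of all probe sets on the silenced arrays and than 78.3% and 75.4% on the control arrays, so the signal in silenced cells was still above the array median. Probe sets differ in brightness for reasons other than abundance, and these shares do not rank genes by abundance. In RNA from a whole culture, fewer cells with the transcript and less of it per cell cannot be told apart.

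Nxt1, the usual partner of Nxf1, differed little on the same arrays. It had log2 values of 8.73 and 8.67 in silenced cells, against 8.85 and 8.83 in control cells. The silenced arrays were both below the controls, but the nearest arrays of the groups were only 0.10 apart. The difference was -0.14 (SE 0.12, 95% interval -0.45 to 0.17), or 1.10-fold lower. The interval of Nxt1 ends well short of that of Nxt2, whose upper end is -1.20. The difference between the 2 relatives was itself not tested, since the choice of Nxt2 rests on its value.

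Nxf1, the general export receptor, had the brightest probe set of the family. Its log2 values were 10.99 and 11.29 in silenced cells, against 10.80 and 11.20 in control cells. The groups overlapped, and the lower array of each was that of replicate 1. The difference of 0.14 (SE 0.21, 95% interval -0.41 to 0.69) was smaller than the range within either group, 0.30 in the silenced and 0.41 in the control group. The interval reaches 0.69 at its upper end, so the data do not show that Nxf1 stayed level.

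**Figure D1:**
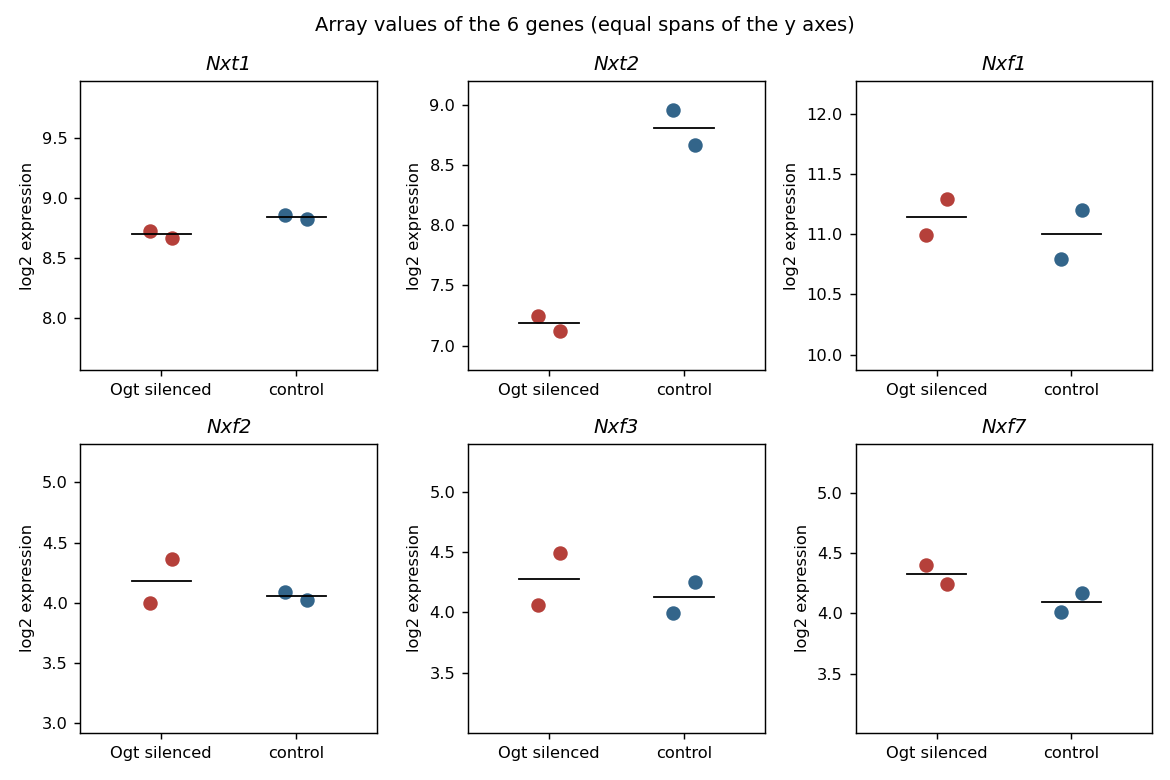
Log2 expression of each member on each array (points) with the group mean (bar), Ogt-silenced cells on the left and control cells on the right, all y axes spanning the same number of log2 units. Nxt2 is the gene whose groups stand far apart, at 7.25 and 7.12 in silenced cells and 8.95 and 8.66 in control cells.

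The 3 X-linked relatives of Nxf1 were dim on every array. Nxf2 had log2 values of 4.0 and 4.36 in silenced cells, against 4.09 and 4.03 in control cells. The first silenced array was the lowest of all and the second the highest, so the groups overlapped, with a difference of 0.12 (SE 0.17, 95% interval -0.33 to 0.57). Nxf3 had 4.06 and 4.49 in silenced cells, against 3.99 and 4.26 in control cells. Here too the groups overlapped, and replicate 2 was the higher array of both, with a difference of 0.15 (SE 0.21, 95% interval -0.40 to 0.70). The human NXF3 protein is known to leave the nucleus through another exporter, and nothing of that kind was measured here. Nxf7 had 4.40 and 4.25 in silenced cells, against 4.01 and 4.17 in control cells. Both silenced arrays were above both controls, by 0.07 between the nearest, and the difference was 0.23 (SE 0.14, 95% interval -0.13 to 0.60).

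On single arrays, the 3 probe sets were brighter than between 13.9% and 21.0% of all probe sets. The deposited table gives no detection call, so whether these transcripts were present cannot be read from it. Differences of a transcript near the background are compressed on the log2 scale, so small values here set no firm limit. The groups of 3 of the 6 members did not overlap, Nxt1 and Nxt2 lower and Nxf7 higher, while among all gene symbols the groups did not overlap for 39.5%, with 19.4% lower and 20.0% higher. Since the members were chosen on this comparison, nothing is read from that count. By size of difference, 25.9% of gene symbols had a difference at least as large as that of Nxf7, and 44.2% to 52.9% one at least as large as those of Nxt1, Nxf1, Nxf2 and Nxf3. For Nxt2 that share was 0.029%, but Nxt2 was chosen for its small p in this comparison, so the share is no test.

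**Figure D2:**
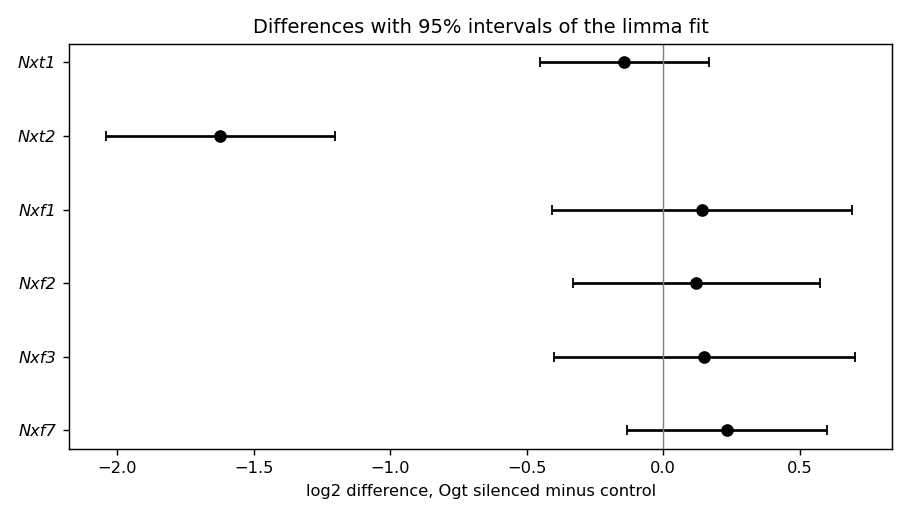
Log2 difference, Ogt-silenced minus control, of each member (points) with the 95% interval of the limma fit (bars). The intervals of Nxt1, Nxf1, Nxf2, Nxf3 and Nxf7 include 0, and that of Nxt2 runs from -2.04 to -1.20. Nxt2 was chosen for its small p in this comparison, so an interval away from 0 follows from the choice and is no test.

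The rest of the export machinery was described from 6 lists holding 73 measured genes of 74 listed, with the members left out. Of the 73 genes, 49 (67.1%) were higher and 24 lower in silenced cells, where 51.2% of all gene symbols were higher. Of the 73, 0 passed an adjusted p of 0.05, and the median log2 difference was 0.06, against 0.01 over all gene symbols. At an unadjusted p under 0.05 there were 3 higher (4.11%) and 1 lower (1.37%), where 3.40% of all gene symbols were higher and 2.66% lower at that level. Over the alternatives tried, the higher count ran from 1, without any one of 3 arrays (control replicate 1, control replicate 2 or silenced replicate 2), to 7, with named probe sets, averaged probe sets or the replicate block, and the lower count from 0 to 2. The median took the other sign without control replicate 1 (-0.02) and without silenced replicate 2 (-0.03).

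TREX and its adaptors, which load Nxf1 onto transcripts, had 10 genes higher and 6 lower of 16, with differences from -0.11 to 0.39. Thoc2, the large scaffold subunit of TREX, was the one at an unadjusted p under 0.05. It had 10.11 and 10.28 in silenced cells, against 9.79 and 9.81 in control cells, a difference of 0.39 (SE 0.13). Thoc3, another subunit, stood at 0.32 (SE 0.13) and Zc3h11a, an adaptor, at 0.31 (SE 0.18). Refbp2, now Alyref2, is a relative of the main adaptor and stood at 0.39 (SE 0.15), but its second probe set pointed the other way, at -0.28 (SE 0.14).

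TREX-2, of the 6 export lists the one with the largest single difference below 0, had 2 genes higher and 5 lower of 7. Cetn3, a centrin that also serves the centrosome, had 9.20 and 9.26 in silenced cells, against 9.84 and 9.74 in control cells. The groups did not overlap, and the difference was -0.56 (SE 0.12), or 1.47-fold lower, at an unadjusted p under 0.05. Pcid2, a subunit of the same complex, pointed upward and was also at that level. It had 10.14 and 10.13 in silenced cells, against 9.78 and 9.81 in control cells, a difference of 0.34 (SE 0.11). Sac3d1 at -0.15 (SE 0.14) and Eny2, shared with the SAGA coactivator, at -0.11 (SE 0.12) differed less.

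The list of cap-binding genes and of exon junction genes, the latter marking a spliced transcript, had 10 higher and 2 lower of 12. None was at an unadjusted p under 0.05. Casc3, a core exon junction protein, stood at 0.40 (SE 0.15). Rnps1 and Acin1, which bind at the junction's periphery, stood at -0.22 (SE 0.13) and -0.15 (SE 0.12), and Magohb at 0.28 (SE 0.22) from a dim probe set. Among 10 SR proteins and other partners of Nxf1, 7 were higher and 3 lower, and differences ran from -0.16 to 0.20. Cpsf6, a cleavage factor subunit, was at 0.20 (SE 0.13), U2af2, a splicing factor, at 0.18 (SE 0.15), Rbm15b at -0.16 (SE 0.14) and Srsf3 at -0.11 (SE 0.13).

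Pore factors that release the transcript were higher in 9 and lower in 5 of 14. Ddx25, a helicase of this family known from testis, had 7.33 and 7.37 in silenced cells, against 6.80 and 6.69 in control cells. Both silenced arrays were above both controls, and the difference of 0.61 (SE 0.12), or 1.52-fold higher, was the widest of the 73 genes and at an unadjusted p under 0.05. Ddx19b, a release helicase of the same family, pointed the other way at -0.41 (SE 0.17). Nup155, a scaffold nucleoporin, stood at 0.17 (SE 0.12) and Ranbp2, of the cytoplasmic filaments, at 0.15 (SE 0.16). In the list of the Ran cycle and carriers, 11 of 14 were higher and 3 lower. The exportin genes Xpo4 and Xpo5 stood at 0.37 (SE 0.14) and 0.26 (SE 0.15), and the Ran regulators Rangap1 and Rcc1 at -0.18 (SE 0.14) and 0.18 (SE 0.15). None of that list was at an unadjusted p under 0.05.

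**Figure D3:**
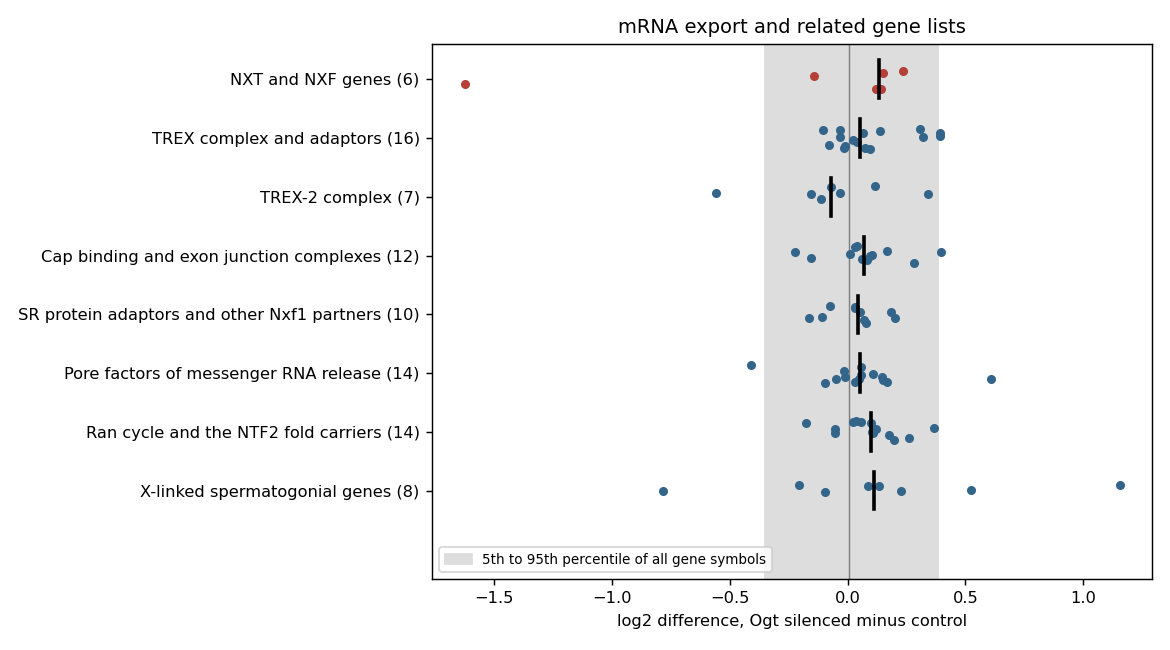
Log2 difference, Ogt-silenced minus control, of each gene (points) in the NXT and NXF family and in 7 lists, with the list median (bar) and the 5th to 95th percentile of all gene symbols (grey band, -0.35 to 0.38). Nxt2 lies far to the left, while the export lists lie mostly inside the band.

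Nxf2 and Nxf3 are also found among X-linked genes known from spermatogonia and testis, and 8 of the 10 other genes listed were measured. Of these, 5 were higher and 3 lower, where 51.2% of all gene symbols were higher. At an unadjusted p under 0.05 there were 0 higher and 1 lower (12.5%). Among all gene symbols, 3.40% were higher and 2.66% lower at that level. The 1 lower gene was Tex11, needed for meiotic recombination in male mice. It had 4.58 and 4.28 in silenced cells, against 5.28 and 5.14 in control cells, a difference of -0.78 (SE 0.16). Pramel3 had 3.56 and 5.18 in silenced cells, against 3.36 and 3.08 in control cells. Its difference was 1.15 (SE 0.57), and the second silenced array stood far above the other 3 arrays. Tktl1, a transketolase-like gene, stood at 0.52 (SE 0.46) and Fthl17, a ferritin-like gene, at 0.23 (SE 0.20) by the brightest of its 4 probe sets. Tex11, Pramel3, Usp26, Tex13a, Tex16 and Taf7l were below the array median on every array, where differences can be compressed. The list had a median of 0.11, and its genes differed in both directions.

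The measured genes beside Nxt2 on the X chromosome stood between -0.23 and 0.31, against -1.62 for Nxt2 itself, a contrast given as a description. In the gene order of the RefSeq table, the 3 nearest measured genes on one side are Gucy2f at -0.04 (SE 0.17), Irs4 at 0.01 (SE 0.12) and Col4a5 at -0.16 (SE 0.13). On the other side are Gm5643, a transcribed pseudogene, at -0.06 (SE 0.11), Kcne1l at -0.23 (SE 0.13) and Acsl4, which encodes an acyl-CoA synthetase, at 0.31 (SE 0.31). Gucy2f, Irs4, Col4a5 and Kcne1l were below the array median on every array, Gucy2f at 3.96 to 4.26, while Gm5643 and Acsl4 were above it. As for the dim NXF genes, small differences of dim neighbours set no firm limit. The neighbours of Nxf2, Nxf7 and Nxf3 ran from -0.47 for Tceal6 to 1.15 for Pramel3. Of 781 X-linked gene symbols other than the members, 2.82% were higher and 3.71% lower at an unadjusted p under 0.05, against 3.46% and 2.60% of 19343 symbols on other chromosomes. Their median difference was -0.01, against 0.01 on the other chromosomes. The X-linked differences ran from -2.77 to 1.15, and those on the other chromosomes from -2.18 to 1.36. Ogt, the silenced gene, is X-linked too and was not left out of these values.

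**Figure D4:**
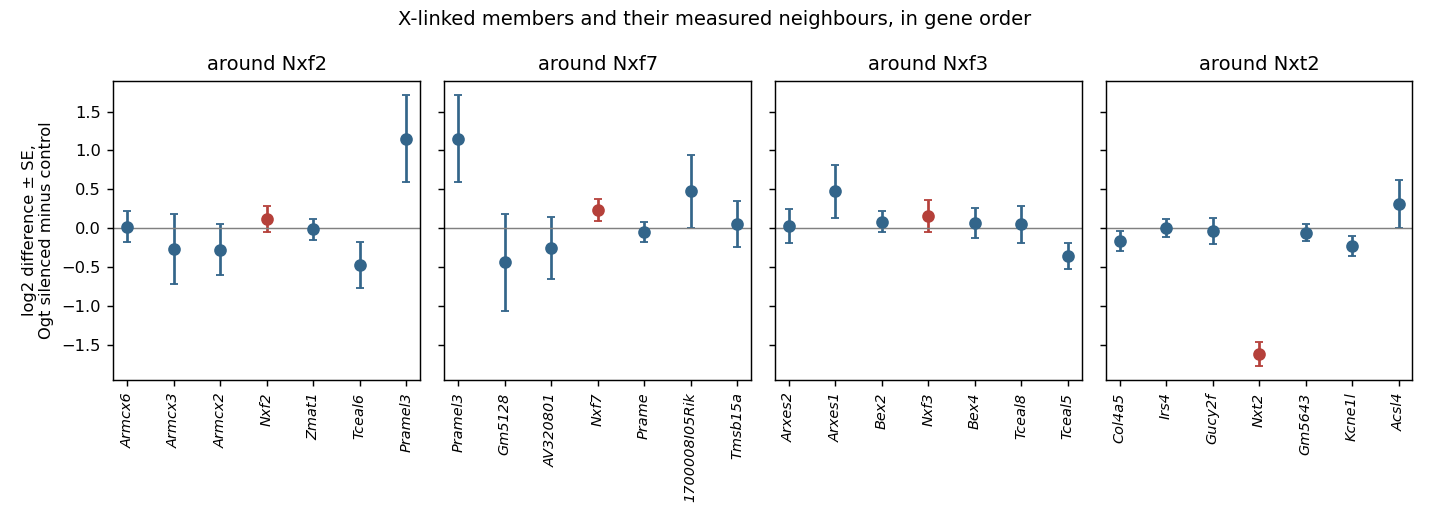
Log2 difference, Ogt-silenced minus control, with its SE for each X-linked member (red) and the 3 measured genes on either side (blue), in gene order and not to scale in distance. Nxt2 is at -1.62, and its neighbours lie between -0.23 and 0.31.

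The genes whose pattern was nearest to Nxt2 were found by the Euclidean distance between log2 values over the 4 arrays, each gene centred on its own mean. The nearest was Mgea5, now Oga, the gene of the enzyme that removes O-linked N-acetylglucosamine, at a distance of 0.19. It had 8.75 and 8.45 in silenced cells, against 10.19 and 10.07 in control cells, a difference of -1.53 (SE 0.16). Zhx1, which encodes a zinc finger and homeobox protein, followed at 0.25, with a difference of -1.42 (SE 0.15). Sycp3, of the axis of meiotic chromosomes, was at 0.33, Rnf17, which encodes a Tudor protein of male germ cells, at 0.34 and 1700001L05Rik at 0.35. Their differences were -1.45 (SE 0.25), -1.80 (SE 0.14) and -1.69 (SE 0.13). The median distance of all other gene symbols was 1.66. With 4 arrays in 2 groups, nearness says mainly that a gene had a difference of like size, and 4 of these 5 genes are among the 10 lower symbols of the smallest p in the same comparison.

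**Figure D5:**
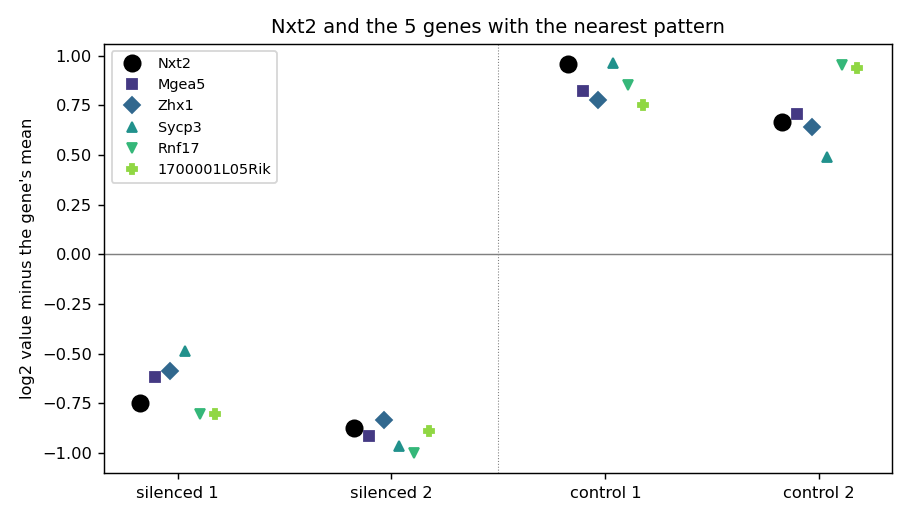
Log2 value on each array minus the gene's own mean, for Nxt2 and the 5 genes nearest to it in pattern. On the control arrays Nxt2 is higher on the first, as are Mgea5, Zhx1 and Sycp3, while Rnf17 and 1700001L05Rik are higher on the second.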

How the data were processed

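Per the labels' protocols, labelled cDNA was made from total RNA and hybridised to one-colour arrays. The deposited values are log2 expression, made by the authors with RMA, per the submitters' processing notes, which corrects background, normalizes across arrays and summarises probe sets. The authors' deposited table also holds a log2 fold change and an unadjusted p-value per probe set, made with limma, per the same notes. For the versions, array type and genome build, the sources used here state nothing.

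The 34760 probe sets were fitted with limma 3.58.1 in R 4.3.3 (lmFit and eBayes, group as the only term, 2 residual degrees of freedom and 4.38 after moderation), with Benjamini-Hochberg adjustment at 0.05. The result matched the authors' log2 fold changes to within 4.55e-08. The brightest probe set stood for a gene. The fit was tested on simulated data with independent noise on each array. That test does not cover effects shared by arrays of equal replicate number, and no result here rests on it. No scan dates were at hand to test as batches, and precision is limited by the number of arrays.

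The members and lists were chosen with earlier results of these data known. Genes named were the members, Ogt, up to 4 per list with the smallest p, 3 measured neighbours on either side of X-linked members and the 5 nearest to Nxt2 in pattern. Of the 20723 symbols, 19457 matched RefSeq by accession. Alternatives tried were 2 further normalizations, 2 filters, 2 variance priors, the replicate number as a block, averaged probe sets and leaving out each array.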

Additional observations from a re-analysis of the deposited data

How the results depend on the processing

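The Nxt2 difference lay between -1.64 and -1.62 under the other normalizations, filters and variance priors, under the replicate block and with averaged probe sets, and between -1.77 and -1.48 without 1 array. Without 1 array, Nxt1 lay between -0.17 and -0.11 and Nxf7 between 0.15 and 0.32, while Nxf1 (-0.06 to 0.35), Nxf2 (-0.06 to 0.30) and Nxf3 (-0.07 to 0.37) took both signs. The filter on level removed Nxf2, Nxf3, Nxf7 and 1 export gene. In limma, 0 probe sets had an adjusted p under 0.05 in the main fit and under every alternative run over the whole table, which averaged probe sets were not. At an unadjusted p under 0.05, the count of 2565 became 1512 among probe sets above the median level, where fewer were tested, and 1276 to 2788 without 1 array, the low values being 1481 without control replicate 1 and 1276 without control replicate 2. Among the 73 export genes, the 3 higher became 4 after quantile normalization, 5 with centred arrays, the filter on level (of 72) or a variance trend, 7 with named probe sets or averaged probe sets, and 1 to 3 without 1 array (1 without either control replicate or silenced replicate 2). The 1 lower became 2 after quantile normalization or with averaged probe sets and 0 to 2 without 1 array (0 without control replicate 1, 2 without silenced replicate 1). The causes were not tested. With the replicate block, although no label says that equal numbers mark pairs, the counts were 5279 probe sets, 7 higher and 2 lower export genes. Differences between replicates correlated across probe sets between the groups (r = 0.479), from only 2 pairs. Arrays of equal replicate number correlated across the groups at 0.9906 (replicate 1) and 0.99 (replicate 2). Within a group the values were lower, 0.9889 for the controls and 0.986 for the silenced arrays. The SEs and intervals given for genes are those of the fit without the block. With the block, the SEs of Nxf1 and Nxf3 were 0.10 each, against 0.21 each without it. For Nxt2 the SE was 0.10 against 0.16, and for Nxt1 0.09 against 0.12. Nxf2 had 0.15 against 0.17 and Nxf7 0.13 against 0.14. The block leaves fewer residual degrees of freedom.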
